A study of Mus musculus with 17 samples.

Results

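Hepatic stellate cells are the retinoid-storing pericytes of the liver, and 10 genes that mark them or carry the growth factor signals that activate them were followed in whole mouse liver. The set holds Lrat, Reln, Hgf and Des, which mark stellate cells in healthy liver, Acta2 and Timp1, which rise when they turn into myofibroblasts, the TGF-beta ligand Tgfb1 and its receptor Tgfbr2, and the PDGF receptors Pdgfra and Pdgfrb. The genes were chosen by symbol, and all 10 were found, each in 1 row, among the 48440 gene rows of the deposited table of normalized counts. Of these, 9 reached the mean of at least 10 normalized counts that was required for testing, as did 14588 genes in all. Timp1 did not reach it, and its values are given without that filter.

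Polyadenylated RNA of liver was sequenced from 3 groups of mice. Wild-type B6 mice aged 2 months gave 6 libraries, of which 4 were male and 2 female. Wild-type B6 mice aged 2 years gave 5 libraries, of which 3 were male and 2 female. Transgenic mice carrying miR-29, aged 2 months, gave 6 libraries, of which 5 were male and 1 female. Which promoter drives the transgene, in which cells, and which miR-29 family member it encodes is not stated in the labels. The 4 miR-29 precursor genes of the table were at 0 in all 17 libraries, so the transgene itself could not be checked in these data. Libraries were made and sequenced at 2 sites with different kits. Batch A (TruSeq, 10 libraries) held 4 young wild-type, 3 old wild-type and 3 transgenic livers, and batch B (NEBNext Ultra II Directional, 7 libraries, all male) held 2, 2 and 3. Summed normalized values ran from 28077001 to 44543936 per library. The labels name the libraries but not separate animals, so the p-values measure the spread between libraries. In whole liver, fewer cells of a type and less RNA per cell cannot be told apart.

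In healthy liver, stellate cells sit between hepatocytes and the sinusoidal endothelium and store vitamin A as retinyl esters. After injury, TGF-beta released from its latent complex signals through its type II and type I receptors to SMAD proteins, PDGF drives proliferation through its receptors, and the cells acquire smooth muscle actin, lose their retinoid and deposit collagen. The miR-29 family pairs through its seed with sites in the 3′ UTRs of collagen and other matrix genes, and it is known as a brake on collagen production in stellate cells.

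The mature miR-29 sequences are shown, from RefSeq (GRCm38.p6), because their shared seed defines the sites that were searched in the 10 genes. Capitals mark the seed, which is identical in the 3 members.
mmu-miR-29a-3p: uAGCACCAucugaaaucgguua
mmu-miR-29b-3p: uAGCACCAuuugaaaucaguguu
mmu-miR-29c-3p: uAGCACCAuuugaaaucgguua

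The complement of that seed, TGGTGCT, was searched on the sense strand of the longest annotated 3′ UTR of each gene (GENCODE M21, GRCm38). It was found in 2 of the 10 genes, both PDGF receptors, with 2 matches in Pdgfra and 1 in Pdgfrb. Over all tested genes with such a UTR, 1989 of 12927 (15.4%) held a match. The UTRs of the 10 genes had a median of 1344 bases, against 1151 bases over tested genes. Those of Tgfb1 (135 bases) and Timp1 (103 bases) are short, and that of Tgfbr2 (6085 bases) is the longest of the 10. A match is a run of letters and was not tested as a binding site. The Pdgfra windows are shown because this receptor had the largest transgene value of the 10 genes, and the Col1a1 window because this collagen, a textbook miR-29 target, moved the other way. Itgb3, Ski and Stab2, which are named below and rose with the transgene, also held 1 match each. Capitals mark the match. The Pdgfra matches lie at chr5:75196365-75196371 and chr5:75196526-75196532 on the plus strand, at positions 1265 to 1271 and 1426 to 1432 of a UTR of 3115 bases. The Col1a1 match lies at chr11:94952538-94952544 on the plus strand and is followed by an A, which extends it to 8 bases.
Pdgfra first match: tgagaccacaaTGGTGCTgttgaatgaag
Pdgfra second match: tatgaactgccTGGTGCTcttgaatagtc
Col1a1 match: gaaggaatttcTGGTGCTatagaagctga

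None of the 9 tested genes passed the test in any of the 3 comparisons between groups. Fold changes were estimated with limma on log2(normalized count + 1), adjusted for batch and sex, with Benjamini-Hochberg adjustment over all 14588 genes and a threshold of 0.05. Between young and old wild-type liver, 0 of the 9 were called, where 0.144% of all tested genes were, and 0 of the 9 had an unadjusted p under 0.05, where 8.73% of all tested genes did (4.56% higher, 4.17% lower). Between transgenic and young wild-type liver, 0 of the 9 were called, where 6.71% of all tested genes were (2.89% higher, 3.83% lower), and 2 of the 9, Pdgfra and Tgfb1, had an unadjusted p under 0.05. The latter share is close to that over all tested genes, of which 21.2% did (10.3% higher, 10.9% lower). Between transgenic and old wild-type liver, 0 of the 9 were called, where 2.55% of all tested genes were, and 0 of the 9 had an unadjusted p under 0.05, where 15.3% of all tested genes did. The median log2 fold change of the 9 genes was -0.03 with age (all tested genes, 0.00), 0.26 with the transgene (all tested genes, 0.01) and 0.02 for transgenic against old liver (all tested genes, 0.02). The authors' deposited table of their own comparison called 2 of the 10 genes with the transgene, again Pdgfra and Tgfb1, and none of the 10 with age. Over all genes with an adjusted p there, 2211 of 15714 were called with the transgene and 280 of 15814 with age. The first and second comparisons share the young wild-type libraries.

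**Figure D1:**
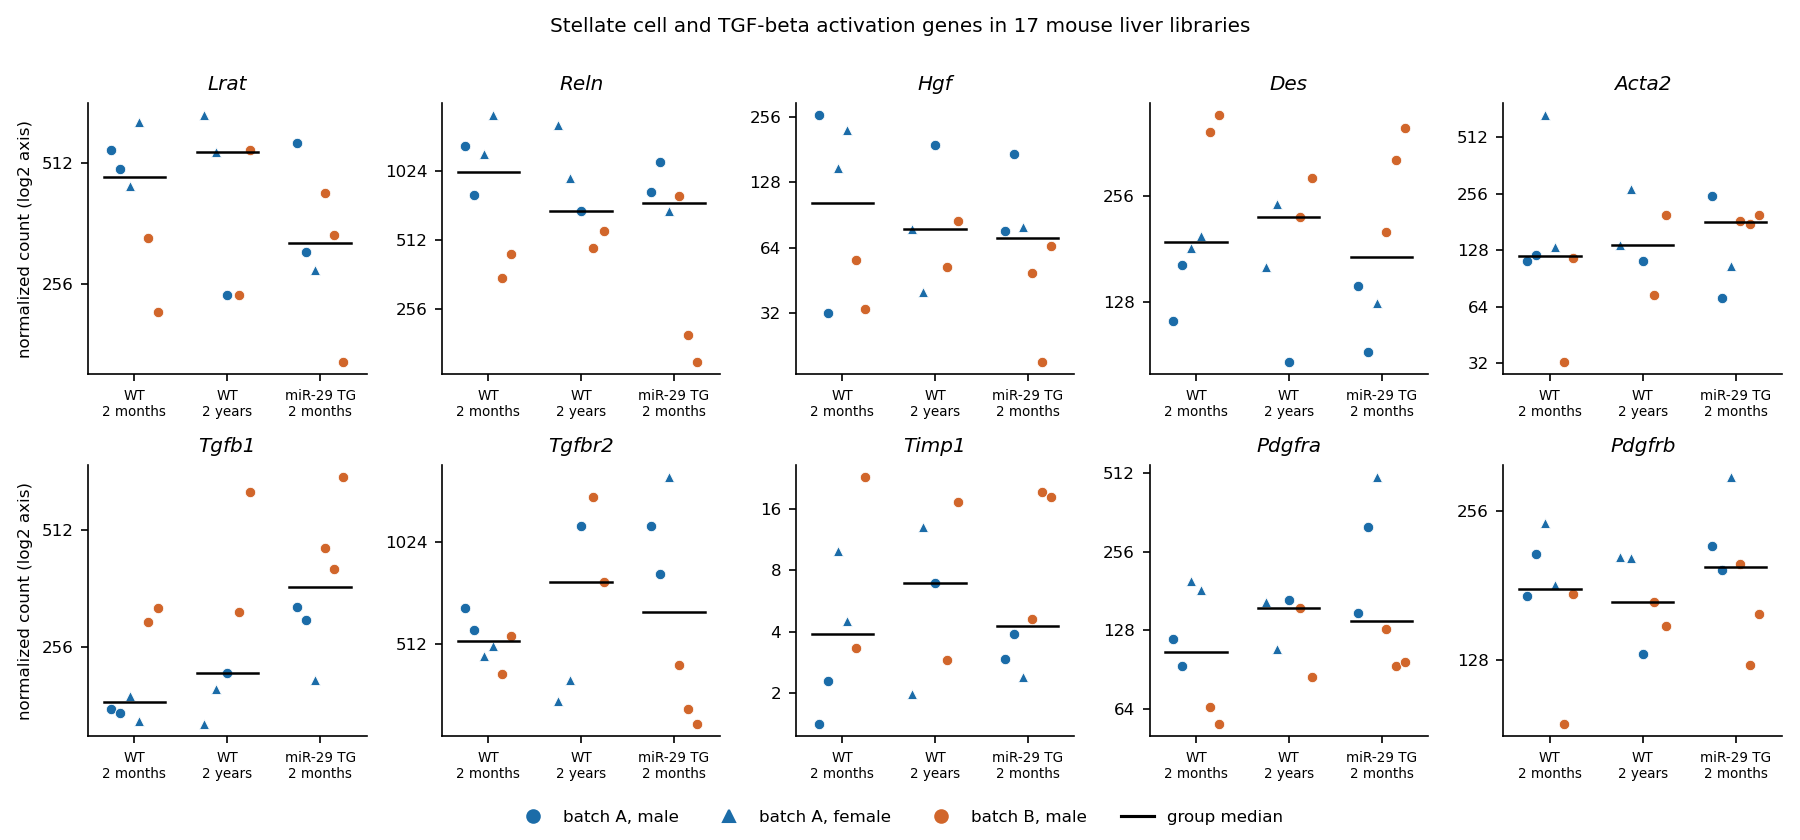
Normalized counts (log2 axis, scaled per panel) of the 10 genes in 17 livers, by group; circles are males, triangles females, colours the 2 sequencing batches and bars group medians. In Tgfb1 every transgenic library sits above the young wild-type libraries of its own colour, and in Acta2 a single young wild-type library stands at 672.08.

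**Figure D2:**
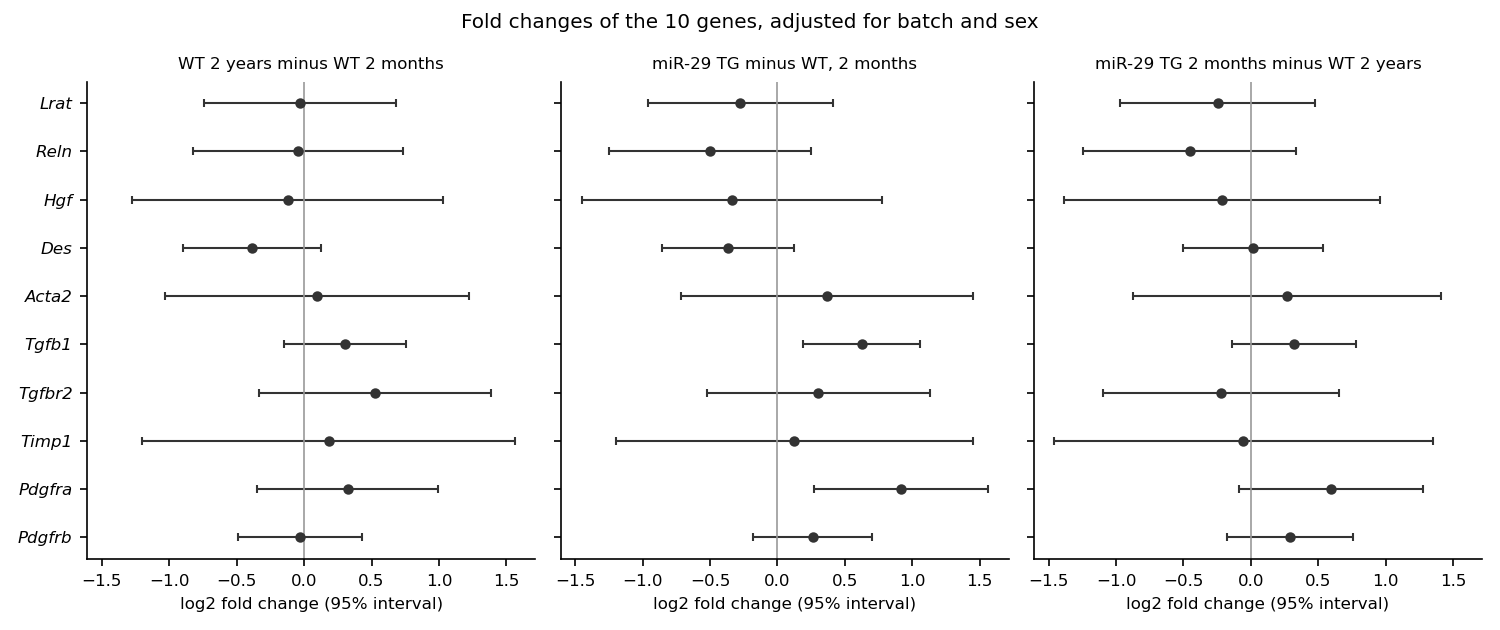
Log2 fold changes (points) with 95% intervals (bars) of the 10 genes in 3 comparisons, adjusted for batch and sex; Timp1 comes from the fit without the filter on low values. The intervals of Pdgfra (0.27 to 1.56) and Tgfb1 (0.19 to 1.06) in the middle panel lie above 0 before adjustment for the number of genes tested.

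Tgfb1 (ENSMUSG00000002603, chr7:25687002-25705077, plus strand) encodes TGF-beta 1, the ligand that drives stellate cells towards myofibroblasts. In batch A the young wild-type libraries measured 164.39, 172.90, 176.88 and 190.78 normalized counts and the transgenic ones 209.53, 299.98 and 323.27. In batch B the young wild-type libraries measured 296.92 and 322.31 and the transgenic ones 406.50, 460.31 and 700.52. Every transgenic library lay above every young wild-type library of its batch, while the pooled groups overlapped, and batch B was above batch A in each group. Tgfb1 was the only 1 of the 9 tested genes with such a separation, which 3% of all tested genes showed in this direction. The transgene log2 fold change was 0.62 ± 0.21 (SE), with a 95% interval of 0.19 to 1.06, and the limma adjusted p of 0.0803 did not pass. Within batch A alone it was 0.59 ± 0.21 (adjusted p = 0.162) and within batch B alone 0.71 ± 0.39 (adjusted p = 0.333). In the authors' deposited table the value was 0.68 ± 0.21 with an adjusted p of 0.0153.

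The 5 old wild-type livers measured 161.78, 199.59 and 218.85 normalized counts of Tgfb1 in batch A and 314.57 and 642.62 in batch B. The old group covered the whole range of the young one and reached above it in 1 library. The age log2 fold change was 0.31 ± 0.21 (adjusted p = 0.658), and transgenic against old liver gave 0.32. Blood and immune cells also make this ligand. The summed level of 12 neutrophil genes was 59.3 to 530.0 in young wild-type, 138.5 to 2362.2 in old wild-type and 524.5 to 48621.4 in transgenic liver, and 10 of 11 tested neutrophil genes rose with the transgene. Ly6g was at 0 in 8 of the 17 libraries. The 7 platelet genes summed to 297.7 to 800.3 in young wild-type, 345.3 to 1422.8 in old wild-type and 722.7 to 1762.8 in transgenic liver. Of the 5 tested, 1, Itgb3, rose, and its mean alone was 747 in transgenic against 238 in young wild-type liver. The transgene estimates of 4 of the 5 were above 0, and that of 1, Ppbp, was below 0. Kupffer cell genes summed to 12114.6 to 24904.8 in young wild-type and 10167.5 to 79323.2 in transgenic liver, and 1 of 10, Marco, rose. The part of these cells in the Tgfb1 values was not tested.

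Tgfbr2 (ENSMUSG00000032440, chr9:116084293-116175360, minus strand) encodes the type II receptor that binds the ligand and recruits the type I receptor. The young wild-type libraries were tightly grouped, with a lowest value of 418.45, a median of 523.14 and a highest of 657.22 normalized counts. The transgenic libraries spread from 298.50 to 1591.65 with a median of 636.72. In batch A the transgenic livers measured 826.81, 1146.78 and 1591.65, all above the 4 young wild-type livers of that batch (474.69 to 657.22), whereas in batch B they measured 298.50, 330.82 and 446.64 against 418.45 and 540.63. The pooled log2 fold change was 0.30 ± 0.39 (adjusted p = 0.722), made of 1.0 ± 0.39 in batch A alone and -0.43 ± 0.34 in batch B alone. The difference between the batches was -1.43 ± 0.56 (limma interaction, adjusted p = 0.231), where 0.5% of tested genes passed that test. The highest library, 1591.65, is the 1 transgenic female, and without it the pooled value was -0.19.

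The old wild-type livers divided by sex in Tgfbr2. The old males measured 784.10, 1145.28 and 1391.37 normalized counts, above all 4 young males (418.45 to 657.22). The old females measured 349.33 and 401.13, below both young females (474.69 and 505.66). How many of all tested genes show such an order was not counted. The age log2 fold change over both sexes was 0.53 ± 0.41 (adjusted p = 0.685), with 1.13 in males and -0.39 in females. The difference between the sexes was 1.51 ± 0.50, which did not pass adjustment (limma interaction, adjusted p = 0.166); 0.0137% of tested genes passed that test. Both batch B libraries of the old group are male, and within batch A the age value was 0.06 ± 0.39.

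Pdgfra (ENSMUSG00000029231, chr5:75152292-75198215, plus strand) encodes a receptor for PDGF that stellate cells and fibroblasts carry. The young wild-type libraries ran from 55.88 to 198.38 normalized counts with a median of 105.54. The transgenic libraries ran from 93.09 to 494.03 with a median of 139.29. In batch A the transgenic livers measured 148.95, 317.07 and 494.03 against 93.01, 118.07, 182.46 and 198.38 in young wild type, and in batch B they measured 93.09, 96.98 and 129.64 against 55.88 and 64.78. The groups overlapped in batch A through 1 transgenic library and did not overlap in batch B.

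The transgene log2 fold change of Pdgfra was the largest of the 9 genes, at 0.92 ± 0.31, with a 95% interval of 0.27 to 1.56 and a limma adjusted p of 0.0841. It was 1.11 ± 0.39 within batch A alone (adjusted p = 0.149) and 0.80 ± 0.41 within batch B alone (adjusted p = 0.307). Fitted on the 2 groups alone it was 1.02 ± 0.24 and passed, with an adjusted p of 0.0169. In the authors' deposited table it was 1.08 ± 0.26 with an adjusted p of 0.00062. Without the transgenic female it was 0.69, with an adjusted p of 0.263. The old wild-type livers measured 84.90, 108.25, 155.22, 164.31 and 166.81 normalized counts, all within the pooled range of the young ones. In batch B both old livers (84.90 and 155.22) lay above both young ones (55.88 and 64.78). The age log2 fold change was 0.32 ± 0.32 (adjusted p = 0.748), with -0.08 ± 0.39 in batch A alone and 0.92 ± 0.44 in batch B alone. It was 0.84 in males and -0.51 in females, and the difference, 1.35 ± 0.51, did not pass (limma interaction, adjusted p = 0.184). In transgenic against old liver the value was 0.59 ± 0.32 (adjusted p = 0.404), the lowest adjusted p of the 9 genes there.

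Pdgfrb (ENSMUSG00000024620, on chromosome 18) encodes the PDGF receptor regarded as the broadest surface marker of stellate cells and pericytes. It had the narrowest spread of the 10 genes, with the highest of the 17 libraries 3.16 times the lowest. The young wild-type libraries ran from 95 to 242.95 normalized counts (median 177.94), and the transgenic ones from 124.80 to 300.28 (median 197.54). The old livers measured 131.39, 150.25, 167.48, 206.18 and 206.91. The 3 groups overlapped throughout. The transgene log2 fold change was 0.26 ± 0.21 (adjusted p = 0.523), 0.29 in batch A alone and 0.30 in batch B alone, and the age value was -0.03 ± 0.22 (adjusted p = 0.976).

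The contractile and cytoskeletal genes come next. Acta2 (ENSMUSG00000035783, chr19:34241090-34255590, minus strand) encodes smooth muscle alpha-actin, which activated stellate cells acquire and vessel wall smooth muscle always holds. The young wild-type libraries measured 32.41, 111.53, 116.58, 120.29, 133.67 and 672.08 normalized counts, so that 4 lay close together, 1 of batch B was the lowest of all 17, and 1, a female of batch A, stood at 672.08. The old livers measured 73.29, 112.07, 136.41, 196.68 and 272.82, and the transgenic ones 71.14, 105.92, 176.24, 183.52, 197.54 and 248.85. The highest of the 17 libraries was 20.74 times the lowest, the widest spread of the 10 genes.

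The log2 fold change of Acta2 with age was 0.10 ± 0.53 (95% interval -1.03 to 1.23, adjusted p = 0.963), and with the transgene 0.37 ± 0.51 (adjusted p = 0.745). Without the high young library these were 0.57 (adjusted p = 0.64) and 0.72 (adjusted p = 0.387). When each of 11 libraries was left out in turn, the age value ran from -0.31, without the young library at 32.41, to 0.57. The age value was -0.33 ± 0.67 in batch A alone and 0.95 ± 0.68 in batch B alone. The transgene value was -0.47 ± 0.67 in batch A alone and 1.57 ± 0.62 in batch B alone, where 1 of the 2 young livers was the lowest of all at 32.41. Without that library the pooled transgene value was -0.08. The high young library was also the highest of the 17 for 4 of 9 vascular smooth muscle markers, Myh11 (smooth muscle myosin, 437.50), Actg2, Synpo2 and Cnn1 (calponin, 62.80). It was the highest for 8 of 26 activated stellate and myofibroblast genes and for 0 of 20 quiescent stellate genes. Cnn1 is counted in both the smooth muscle and the activated list. How many of all tested genes were highest in this library was not counted. Tagln, another actin-binding protein of smooth muscle, was 566.74 in that library and higher still in batch B livers of all 3 groups. The part of vessel wall in its Acta2 value was not tested.

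**Figure D3:**
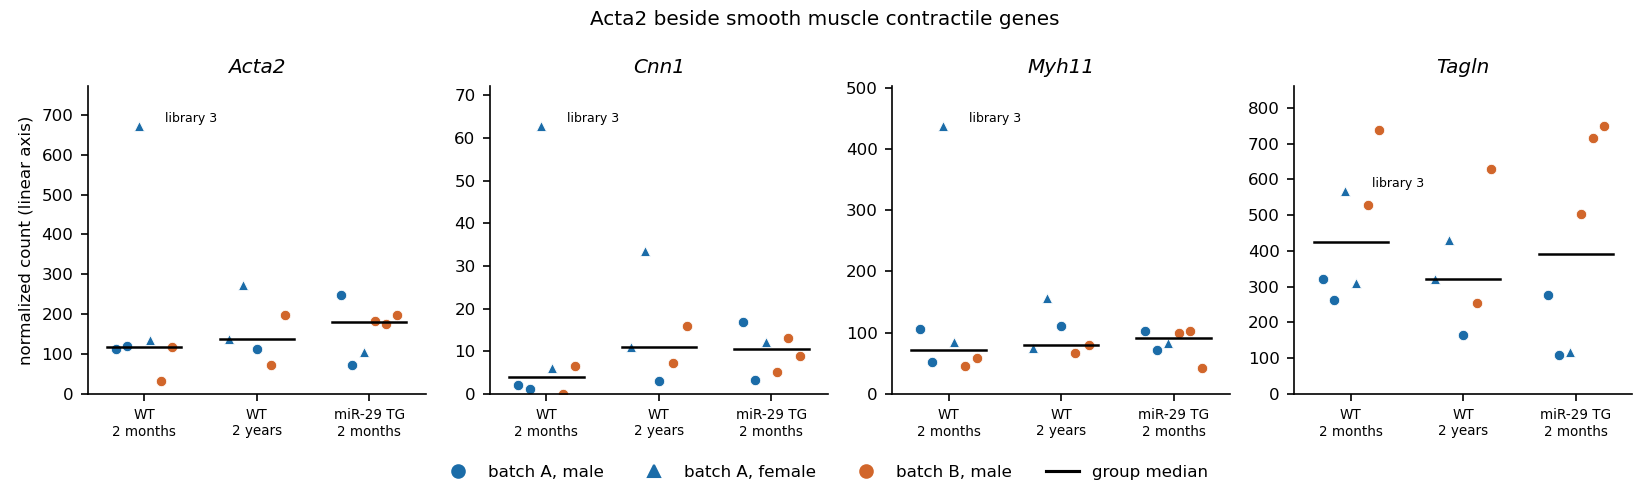
Normalized counts (linear axes from 0) of Acta2 and 3 smooth muscle genes in 17 livers by group, with symbols, colours and bars as in the plot of all 10 genes. Young wild-type library 3 is the highest of all for Acta2, Cnn1 and Myh11 but not for Tagln.

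Des (ENSMUSG00000026208, chr1:75360329-75368579, plus strand) encodes desmin, the intermediate filament of muscle and of rodent stellate cells. Its values followed the batch. Young wild-type livers measured 112.79 to 197.70 normalized counts in batch A and 391.04 and 436.90 in batch B, and transgenic ones 92.32 to 141.68 in batch A and 202.56 to 402.04 in batch B. The old livers measured 86.29, 160.95 and 244.34 in batch A and 224.20 and 289.42 in batch B. The log2 fold change was -0.38 ± 0.24 with age (95% interval -0.90 to 0.13, adjusted p = 0.634) and -0.37 ± 0.23 with the transgene (adjusted p = 0.401). Both estimates had the same sign in each batch alone, with -0.19 and -0.70 for age and -0.34 and -0.47 for the transgene in batches A and B.

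The markers of the quiescent, retinoid-storing state follow. Lrat (ENSMUSG00000028003, chr3:82892579-82903973, minus strand) encodes lecithin retinol acyltransferase, which makes the retinyl esters of the stellate droplets. It ran from 217.36 to 645.55 normalized counts in young wild-type liver (median 471.60) and from 163.42 to 572.05 in transgenic liver (median 322.28). The old livers measured 239.19, 240.01, 544.95, 552.29 and 672.92. The old group thus held 2 low and 3 high libraries. The low pair had 1 library from each batch and both were male. Both old females were high (544.95 and 672.92), and the high library at 552.29 was male. The log2 fold change was -0.03 ± 0.34 with age and -0.28 ± 0.32 with the transgene (adjusted p = 0.692).

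Reln (ENSMUSG00000042453, chr5:21884454-22344702, minus strand) encodes reelin, a secreted glycoprotein that stellate cells make in liver. It ran from 347.32 to 1807.19 normalized counts in young wild-type liver (median 1014.03), with both batch B livers, at 347.32 and 445.76, below all of batch A. The transgenic livers measured 689.00, 832.28 and 1123.72 in batch A and 149.54, 196.71 and 797.81 in batch B, so that 2 of them were the lowest of all 17. The old livers measured 473.17, 563.47, 685.76, 961.30 and 1643.01. The transgene log2 fold change was -0.50 ± 0.35 (adjusted p = 0.461), and the age value -0.05 ± 0.37.

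Hgf (ENSMUSG00000028864, chr5:16553495-16620152, plus strand) encodes hepatocyte growth factor, the mitogen that stellate cells send to hepatocytes. It ran from 32.13 to 260.87 normalized counts in young wild-type liver (median 102.78) and from 19.06 to 173.47 in transgenic liver (median 70.70). The old livers measured 39.80, 52.23, 78.23, 85.08 and 190.97. The young group alone spanned almost the whole range of the gene. The log2 fold change was -0.12 ± 0.55 with age and -0.34 ± 0.53 with the transgene (adjusted p = 0.774). In females the old livers (39.80 and 78.23) lay below the young ones (149.48 and 222.41), while in males the ages overlapped, and the difference between the sexes, 2.49 ± 1.0, did not pass (limma interaction, adjusted p = 0.199).

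Timp1 (ENSMUSG00000001131, chrX:20870166-20874735, plus strand) encodes the inhibitor of metalloproteinases that activated stellate cells release in fibrosis. It stayed low, between 1.41 and 22.85 normalized counts over all 17 libraries, with medians of 3.91 in young wild-type, 6.93 in old wild-type and 4.26 in transgenic liver. The 5 highest libraries, from 13.03 to 22.85, came from all 3 groups. Without the filter on low values its log2 fold change was 0.18 ± 0.65 with age and 0.13 ± 0.63 with the transgene (adjusted p = 0.963).

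The other genes of these pathways were taken from lists of stellate, TGF-beta, PDGF, HGF, metalloproteinase and retinoid genes. With age, none of them passed the test. With the transgene, 0 of 19 quiescent markers and 3 of 25 activated markers passed, and single TGF-beta-responsive, metalloproteinase and retinoid genes did too. Each transgene count below is to be read beside all tested genes, of which 2.89% were called higher and 3.83% lower.

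Of the quiescent stellate list, 0 of 19 tested genes were called in either comparison. At an unadjusted p under 0.05, 3 were higher with the transgene (10.3% of all tested genes) and 2 lower with age (4.17% of all tested genes). The median log2 fold change was 0.14 with the transgene and -0.15 with age. The lowest transgene p-values belonged to Rgs5, a pericyte regulator of G protein signalling (0.69 ± 0.23, adjusted p = 0.0822), and Hand2, a transcription factor of stellate cells (0.48 ± 0.16, adjusted p = 0.0824).

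Of the activated stellate and myofibroblast list, 1 of 25 tested genes rose and 2 fell with the transgene, with a median of -0.53. At an unadjusted p under 0.05, 1 was higher and 10 were lower with the transgene, against 10.3% and 10.9% of all tested genes. Postn, the matrix protein periostin, rose, with a mean of 855 ± 325 (SD, n = 6) normalized counts against 399 ± 267 (SD, n = 6) in young wild type, which is 1.62 ± 0.40 on the log2 scale (limma adjusted p = 0.0235). Col1a1, the alpha 1 chain of type I collagen, fell by 1.88 ± 0.46 (limma adjusted p = 0.02), and Itga8, the integrin alpha 8 of stellate cells and myofibroblasts, fell by 1.34 ± 0.31 (limma adjusted p = 0.0152). The call of Postn was lost when young library 1 or 5 or transgenic library 2 or 5 was left out, that of Col1a1 without young library 2 or transgenic library 2 or 3, and that of Itga8 without transgenic library 3. With age, 0 of 25 were called, with a median of -0.37 and with 7 genes lower at an unadjusted p under 0.05 (4.17% of all tested genes), and the lowest p belonged to Col1a2, the alpha 2 chain of type I collagen, at -1.12 ± 0.28 (adjusted p = 0.156).

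**Figure D4:**
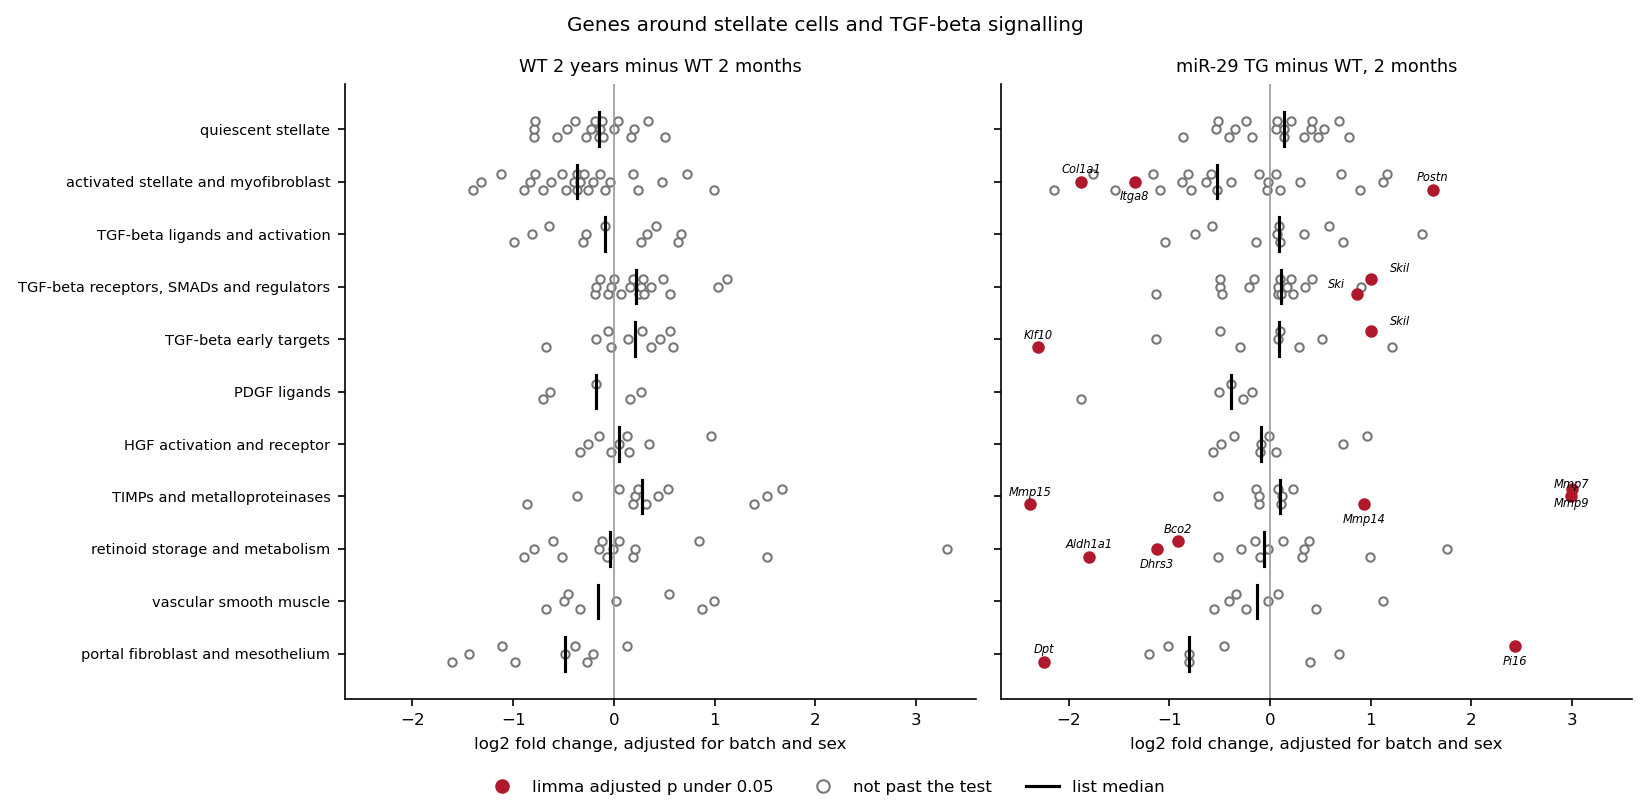
Log2 fold changes of listed genes, 1 point per tested gene and 1 row per list, with age (left) and with the transgene (right); filled points pass the limma test at an adjusted p under 0.05 and bars are list medians. No listed gene passes with age, and with the transgene the outermost points are Mmp9 at 3.0 and Mmp15 at -2.39.

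Among TGF-beta ligands and activation genes, 0 of 11 were called with the transgene (median 0.09) and 0 of 11 with age, while 3 and 1 were higher at an unadjusted p under 0.05, as were 10.3% and 4.56% of all tested genes. Nrros, which tethers latent TGF-beta on macrophages, had 0.73 ± 0.24 (adjusted p = 0.0872), and Thbs1, thrombospondin, which can release the ligand, had 1.51 ± 0.54 (adjusted p = 0.112). Of 18 receptors, SMADs and regulators, 2 rose with the transgene and none fell (median 0.11). Both that rose are nuclear SMAD repressors, Ski by 0.87 ± 0.24 (adjusted p = 0.0423) and Skil by 1.01 ± 0.29 (adjusted p = 0.0446). Leaving out single libraries ended the call of Ski in 10 of 12 cases and that of Skil in 9 of 12. Tgfbr1, the type I partner of Tgfbr2, had 0.11 ± 0.19 (adjusted p = 0.795). With age, Ski had 1.03 ± 0.25 and did not pass (adjusted p = 0.156), while the authors' deposited table called it, at 1.09 ± 0.30 (adjusted p = 0.0209).

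Of 10 early TGF-beta target genes reported here, 1 rose and 1 fell with the transgene (median 0.09), and 0 of 10 were called with age. Klf10, a transcription factor first described as a TGF-beta-inducible early gene, fell by 2.30 ± 0.33 (limma adjusted p = 0.000525). It measured 96.14 to 268.24 normalized counts in transgenic liver and 545.30 to 1691.93 in young wild-type liver, with no overlap. The share of all tested genes that separate downwards like this is not given here, while 3.83% were called lower with the transgene. The old livers ranged from 167.87 to 1983.51. Skil, counted above, is the gene of this list that rose. Its transgenic libraries measured 688.68, 791.12 and 1793.76 normalized counts in batch A, against 418.60 to 803.48 in young wild type, and 415.83, 532.32 and 554.91 in batch B, against 183.67 and 206.17. The groups overlapped in batch A and did not overlap in batch B. Smad7, the inhibitory SMAD induced by the pathway, had 0.10 ± 0.31, and Ctgf, connective tissue growth factor, 0.29 ± 0.39, and neither passed (adjusted p = 0.887 and 0.728).

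**Figure D5:**
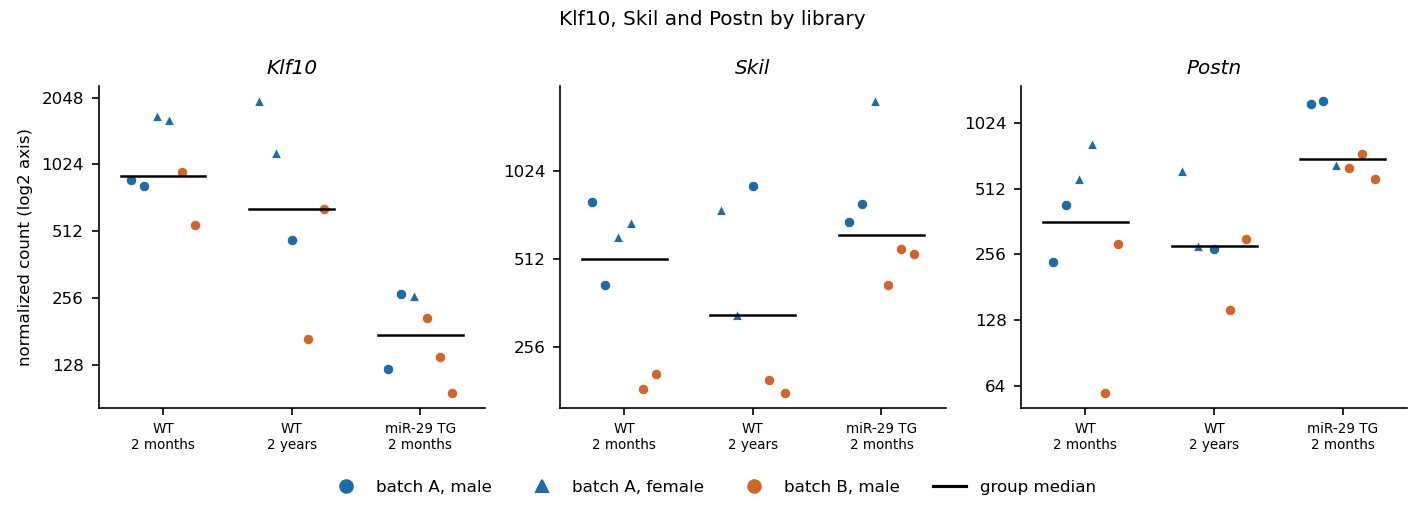
Normalized counts (log2 axes) of Klf10, Skil and Postn in 17 livers by group, with symbols, colours and bars as in the plot of all 10 genes. The transgenic libraries of Klf10 (96.14 to 268.24) lie below all young wild-type ones, while those of Skil run from 415.83 to 1793.76 and overlap them.

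No PDGF ligand gene was called in either comparison (0 of 5), with a transgene median of -0.39 and 1 gene lower at an unadjusted p under 0.05 with the transgene. Of the genes that activate or receive HGF, 0 of 9 were called, with a transgene median of -0.09 and 1 gene in each direction at an unadjusted p under 0.05. Met, the HGF receptor, had 0.06 ± 0.22 (adjusted p = 0.908), and St14, matriptase, a protease that activates HGF, had 0.97 ± 0.31 (adjusted p = 0.0752).

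Of 12 other TIMP and metalloproteinase genes, 3 rose and 1 fell with the transgene (median 0.10), and 0 of 12 were called with age. Mmp15, a membrane-bound metalloproteinase, fell by 2.39 ± 0.35 (limma adjusted p = 0.000513). Its transgenic libraries measured 133.10 to 414.48 normalized counts and its young wild-type ones 449.14 to 1979.75. Mmp7, matrilysin, rose by 2.99 ± 0.62 (limma adjusted p = 0.00681). Mmp9, the gelatinase that is also on the neutrophil list, rose by 3.0 ± 0.74 (limma adjusted p = 0.0224), and Mmp14, a collagenase of the cell surface, rose by 0.94 ± 0.24 (limma adjusted p = 0.0275). Mmp9 lost its call without young library 6 or transgenic library 3, and Mmp14 in 7 of 12 cases. The neutrophil sum given above includes Mmp9 itself and was not compared with these values by library. The part of neutrophils in these values was not tested.

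Of 14 retinoid storage and metabolism genes, 0 rose and 3 fell with the transgene (median -0.06). At an unadjusted p under 0.05, 2 were higher and 4 lower, against 10.3% and 10.9% of all tested genes. Aldh1a1, a retinaldehyde dehydrogenase, fell by 1.79 ± 0.36 (limma adjusted p = 0.00586), Dhrs3, a retinaldehyde reductase, by 1.12 ± 0.23 (limma adjusted p = 0.00725), and Bco2, a carotenoid-cleaving enzyme, by 0.91 ± 0.27 (limma adjusted p = 0.0482). Hepatocytes express all 3 as well. Within batch B alone Aldh1a1 had -0.83 ± 0.47 and Dhrs3 -0.46 ± 0.23, and neither passed (adjusted p = 0.355 and 0.296). The call of Bco2 was lost in 10 of 12 cases when a library was left out. With age 0 of 14 were called, and the highest value was that of Cyp26a1, which clears retinoic acid, at 3.31 ± 0.82 (adjusted p = 0.156).

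Markers of neighbouring cells were set beside these results. With the transgene, 0 of 8 vascular smooth muscle genes were called (median -0.13), and 0 had an unadjusted p under 0.05. Of 9 portal fibroblast and mesothelial genes, 1 rose (Pi16, 2.43 ± 0.67) and 1 fell (Dpt, dermatopontin, -2.24 ± 0.46), with a median of -0.80. The call of Pi16 was lost in 8 of the 12 cases in which a library was left out. Of 12 sinusoidal endothelial genes, 1 rose (Stab2, 1.44 ± 0.28), and 0 of 7 hepatocyte genes were called. Hepatocyte genes summed to 1882421.1 to 6856166.5 normalized counts over the libraries. The summed level of the 20 quiescent stellate genes was 13856.5 to 26549.2 in young wild-type, 11746.1 to 19067.0 in old wild-type and 19701.2 to 32256.0 in transgenic liver. The young range overlapped both others. The transgenic sums lay above the old ones by a narrow margin, and these sums were not adjusted for batch or sex. Dcn alone had a mean of 7573 in transgenic and 5101 in old liver. The sums of the 26 activated genes overlapped, at 22549.0 to 58045.5 in transgenic and 24477.2 to 52442.7 in old liver.

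In transgenic against old wild-type liver, Postn was higher by 1.66 (limma adjusted p = 0.0493), and Klf10 (-1.63, limma adjusted p = 0.0194), Mmp15 (-1.53, limma adjusted p = 0.0343), Dhrs3 (-1.11, limma adjusted p = 0.0213) and Aldh1a1 (-1.68, limma adjusted p = 0.0261) were lower. No gene of the quiescent list (0 of 19), of the receptors and SMADs (0 of 18) or of the ligands (0 of 11) was called there. When each of the 11 libraries was left out in turn, the call was lost in 10 cases for Postn, 7 for Mmp15, 6 for Aldh1a1, 4 for Dhrs3 and 3 for Klf10, and none of the 5 passed when these 2 groups were fitted alone (adjusted p = 0.0565 to 0.123).

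Genes with the most similar pattern to each of the 10 were found from the mean absolute difference of standardised values over the 17 libraries, after removal of batch and sex. The nearest genes to Acta2 were Cnn1 at 0.44 SD units, Ccnb1 at 0.45 and Arhgap11a at 0.52. The nearest to Pdgfra were Irs2 at 0.18 and Slc39a14 at 0.25, and the nearest to Des was Nenf at 0.24. The nearest to Tgfbr2 was Stard5 at 0.31, to Reln Tfg at 0.39, to Lrat Tax1bp3 at 0.44, to Pdgfrb Numbl at 0.43, to Hgf Rapgef5 at 0.42, to Timp1 Naaa at 0.42 and to Tgfb1 Sirpa at 0.42. None of the 10 genes was among the 3 nearest of another. The closest of them to each other were Pdgfra and Tgfbr2 (0.71) and Lrat and Reln (0.72), and for each of these pairs many other genes ranked nearer.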

How the data were processed

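Liver polyA RNA of 17 libraries was measured. The deposited values are normalized counts (a signal scale) from DESeq2, which the submitters' processing notes name with STAR 2.5.3a, Salmon 0.6.0 and build mm10. The deposited tables of the authors' own comparisons hold mean signal, log2 fold changes, a test score (fold change over its SE) and p-values, per the file headers. Raw depth is unknown: only 49.3% to 67.8% of low values lay within 0.1 read of a whole multiple, so no count test was run. Here log2(normalized count + 1) of the 14588 genes with a mean of at least 10 was fitted with limma 3.58.1 (R 4.3.3) with group, batch and sex, with a mean-variance trend and two-sided tests, and Benjamini-Hochberg adjustment over all genes. The script was tested on simulated data. The 10 genes and the 20 lists were chosen with earlier results of these data known. Of lists, genes past the test are named, and otherwise at most the 4 with the smallest p. Tgfbr1, Smad7, Ctgf, Met, Tagln and Myh11 fall outside that rule and are named for their role. Likeness was ranked over all tested genes, and the nearest are named. Replicate numbers are not tied to a litter or day by the labels, and no replicate term was used. Alternatives left out each library, changed the pseudocount, the filter, the scaling and the covariates, or used 1 batch, males or 2 groups alone. Gene names came from the table itself, and 48058 of 48440 identifiers were in the reference table. In 27 rows the symbol had been turned into a date. For the 2 listed genes with more than 1 row, the row with the highest mean was used. A listed gene is not reported here and is left out of its list's count and median.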

Additional observations from a re-analysis of the deposited data

Results flagged for a closer look

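Acta2 in young wild-type library 3 was 672.08 normalized counts, against 32.41 to 133.67 in the other 5 young wild-type livers. The gap to its nearest neighbour took 0.842 of the range of the group, more than Dixon's 95% value for 6 samples. This was the 1 such value among the 30 groups of libraries checked over the 10 genes. Chance gives about 1 in every 20 groups, so 1 among 30 is no more than chance would give. The check used counts that were not log-transformed. Without this library the young wild-type mean of Acta2 was 102.9 ± 40.25 (SD, n = 5).

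Tgfbr2 values of old and young livers lay in opposite order in the sexes: all 3 old males lay above all 4 young males, and both old females lay below both young females. The share of all tested genes with such an order was not counted. The difference between the sexes was 1.51 on the log2 scale (1.514), and its limma interaction test did not pass (adjusted p = 0.166).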

How the results depend on the processing

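None of the 9 tested genes was called in any of the 3 comparisons under any alternative, except with the transgene: 1 (Pdgfra) when the 2 groups compared were fitted alone and 2 in the authors' deposited table. Leaving out each library in turn gave 0 in every case. The count over all genes moved more. With age, 21 genes became 5 with group alone, 9 with group and batch, 1 in batch A, 0 in batch B (limma), 41 in males, 10 with the 2 groups alone, 280 in the authors' table and 9 to 26 without single libraries. With the transgene, 979 became 421 with group alone, 495 in batch A, 263 in batch B and 2210 in the authors' table (1 row per gene symbol; 2211 rows in all), with 653 to 1100 without single libraries. For transgenic against old liver, 372 became 139 with group alone, 175 in batch A, 45 in batch B, 175 in males, 120 with the 2 groups alone and 161 to 525 without single libraries. The batch-alone and male-alone fits hold fewer libraries; otherwise the cause was not tested. With the replicate number as a replicate block, 0 of the 9 genes were called in each comparison, and 11, 796 and 247 genes in all. Deviations of same-numbered libraries correlated from -0.316 to 0.384. The libraries numbered 4, at 0.348 and 0.384, came from different batches. These correlations cannot show whether the numbers pair libraries, because the deviations were taken after group, batch and sex were fitted. Depth is unknown, so values as low as those of Timp1 carry an error that cannot be stated.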
